A study of Homo sapiens with 6 samples.

Results

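The genes described here are 10 parts of the signalling loop of the interleukin-6 (IL-6) family in H69AR cells: the ligands LIF, IL6 and IL11, the receptor chains LIFR, IL6ST, OSMR and IL6R, the transcription factor STAT3, and SOCS3 and CEBPB, which STAT3 and related factors switch on. They were taken by their symbols and make up 10 of 27852 listed genes. The set was chosen from results already known for these libraries, that is from the difference between siTREX1 and siCtrl and above all from the rise of LIF, so the differences of these 10 genes are given as a description and support no test. H69AR is an established multidrug-resistant line that was derived from the small cell lung cancer line H69 by growth in adriamycin. Its cells received a nonspecific control siRNA (siCtrl) or a single siRNA against TREX1 (siTREX1), both with RNAiMAX, and RNA was taken on day 3, with 3 libraries in each group. The sources name no other allele or drug in either group. To evaluate what loss of TREX1 changes in resistant cells, both groups were compared.

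Cytokines of the IL-6 family share the receptor chain gp130, which IL6ST encodes. LIF signals through LIFR paired with gp130, IL-6 and IL-11 through their own binding chains with gp130, and oncostatin M through OSMR or LIFR with gp130. The paired receptors activate JAK kinases, these phosphorylate STAT3, and STAT3 induces SOCS3, which blocks the receptor complex and so closes a negative loop. C/EBP beta, the product of CEBPB, acts with STAT3 and NF-kB on acute-phase and cytokine genes. The activity of STAT3 depends on its phosphorylation, which mRNA levels do not measure.

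The start regions of IL6 and IL11 are shown because the pair differed in whether the listed transcript was seen. IL6 was listed at 0 throughout and IL11 was present in all 6 libraries. Each stretch is the RefSeq promoter on GRCh38.p14, from 250 bases before to 50 bases after the annotated start, read 5′ to 3′ along the gene's strand. The IL6 window lies on the plus strand at chr7:22726950-22727249, and its RefSeq start is 53 bases downstream of the start of the listed transcript. The IL11 window lies on the minus strand at chr19:55370414-55370713, and its RefSeq start is the first base of the listed transcript. Capitals mark matches to the motifs named after them.
IL6: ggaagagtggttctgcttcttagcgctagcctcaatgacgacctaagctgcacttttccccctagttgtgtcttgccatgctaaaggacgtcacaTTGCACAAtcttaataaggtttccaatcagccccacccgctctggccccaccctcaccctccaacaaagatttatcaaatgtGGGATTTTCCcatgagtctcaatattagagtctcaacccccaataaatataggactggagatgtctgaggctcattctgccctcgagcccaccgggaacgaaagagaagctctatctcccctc
IL11: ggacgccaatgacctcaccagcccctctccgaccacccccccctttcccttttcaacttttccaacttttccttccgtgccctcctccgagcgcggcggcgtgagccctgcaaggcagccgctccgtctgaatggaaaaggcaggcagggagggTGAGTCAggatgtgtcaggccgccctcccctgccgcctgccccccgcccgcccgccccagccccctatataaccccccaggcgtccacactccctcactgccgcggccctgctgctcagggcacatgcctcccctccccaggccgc
In the IL6 window the capitals are an 8-base match to the CCAAT/enhancer motif of C/EBP proteins (searched as TTGCNNAA) from 155 bases before the start and a 10-base match to the NF-kB motif from 73 bases before it. In the IL11 window the capitals are a match to the AP-1 motif (TGANTCA) from 96 bases before the start. The STAT motif (TTCNNNGAA) and the cAMP response element (TGACGTCA) were searched too, all on both strands, and no 2 matches overlapped in the windows of these genes. Among 35116 RefSeq windows of this length, the CCAAT/enhancer motif was found in 10.5%, the NF-kB motif in 11.3%, the AP-1 motif in 7.71%, the STAT motif in 7.66% and the cAMP response element in 1.85%. Whether these motifs bear on the levels of IL6 and IL11 was not tested. RefSeq windows were matched for 9 of the 10 genes, LIF being the other. The windows of LIFR (a STAT match), IL6ST (NF-kB), OSMR (AP-1 and CCAAT/enhancer) and IL6R (AP-1) also held matches, and those of STAT3, SOCS3 and CEBPB held none of these letters. The RefSeq start of LIFR lies 38759 bases upstream of its listed transcript, that of SOCS3 848 bases upstream and that of CEBPB 151 bases upstream, so the starts of these listed transcripts are outside the windows.

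Levels are given as CPM, estimated counts scaled to a common library size, which the authors had already made independent of transcript length, so levels of different genes can be set side by side. They are not numbers of reads, and a limit that counting error alone would set was therefore not computed. Of the 10 genes, 7 passed the filter on low counts, and IL6, LIFR and OSMR did not. In bulk RNA, a change in every cell and a change in the share of cells that make a transcript cannot be told apart. Whether replicate libraries were grown as separate cultures is not given in the sources used here. Errors and p-values thus cover spread from library to library, and that spread may be technical.

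TREX1 itself was at 22.7, 31.5 and 24.7 CPM in siCtrl replicates 1, 2 and 3 and at 28.4, 16 and 18.2 CPM in those labelled siTREX1, in the same order. The groups overlapped because the library labelled siTREX1 replicate 1 was not lower. TREX1 had a log2 fold change of -0.33 with a standard error of 0.24, and by the quasi-likelihood test of edgeR its adjusted p was 0.349. Without that library the log2 fold change of TREX1 was -0.62 (adjusted p = 0.0499 from edgeR). The library was singled out by its TREX1 level, so this value follows in part from that choice and is no test of the knockdown. The transcript listed for TREX1 codes for 525 of the 942 bases of the longest coding sequence of the gene, and exons of ATRIP overlap TREX1 on the same strand. The paper also examined TREX1 after siTREX1 in H69AR cells by qPCR and immunoblot, with measurements that are not part of these libraries. Directions are given for siTREX1 as labelled, with siCtrl as the base, and each result that rests on replicate 1 is given without it. Library totals ran from 16329106 to 22482687 estimated counts. Mitochondrially encoded genes took 5.94% to 6.37% of the counts with siCtrl and 3.98% to 5.01% in the libraries labelled siTREX1, and their part in the results was not tested. Of the non-neuroendocrine markers, 8 of 8 averaged at least 1 CPM over the 6 libraries, with VIM at 2500 CPM under siCtrl, but MYC reached this only through the libraries labelled siTREX1 (0.159 CPM under siCtrl and 3.75 CPM in these, log2 fold change 4.47, adjusted p = 0.00784 from edgeR). That list summed to 3230 to 3240 CPM with siCtrl and 3350 to 3370 CPM in the libraries labelled siTREX1. Of the neuroendocrine markers, 4 of 9 averaged at least 1 CPM, namely INSM1 (15.3 CPM under siCtrl), DLL3 (26.3 CPM), CHGB (5.89 CPM) and SYP (2.77 CPM), while NEUROD1 was at 0.0341 CPM. The 9 neuroendocrine markers summed to 49.4 to 51.4 CPM with siCtrl and 39.8 to 41.4 CPM in the libraries labelled siTREX1. The 8 immune markers summed to 6.78 to 12.6 CPM with siCtrl and 9.32 to 14.2 CPM in the libraries labelled siTREX1, mostly from CD68, with MS4A1 and NKG7 at 0. The 8 markers of fibroblasts and endothelium summed to 758 to 768 and 703 to 748 CPM, nearly all from the collagens COL1A1 and COL3A1, with VWF and CDH5 averaging 0.00268 and 0.0151 CPM under siCtrl. The part of these shifts in the results was not tested.

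The ligand LIF rose about 4-fold and was the only one of the 10 genes to be called higher. LIF, a cytokine best known for keeping mouse embryonic stem cells undifferentiated, stood at 5.51, 6.36 and 5.46 CPM in the siCtrl libraries and at 23.5, 22.1 and 22.7 CPM in the libraries labelled siTREX1. All 3 of the latter lay far above all 3 controls, and the library in which TREX1 was not lower had the highest LIF level of the 6. Means were 5.78 ± 0.503 CPM (SD, n = 3) and 22.7 ± 0.726 CPM (SD, n = 3). The log2 fold change was 1.97 (standard error 0.09, 95% interval 1.76 to 2.19), a fold of 3.93. It was 1.95 without siTREX1 replicate 1. By size it ranked 85 among rises over 13221 tested genes. The listed transcript of LIF (ENST00000249075, 3969 nt) is protein coding and spans the gene on the minus strand of chromosome 22, from 30240447 to 30246851 on GRCh38.

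The other ligands did not share this course. IL11, a relative of IL-6 that also signals through gp130, was at 1.63, 2.24 and 1.16 CPM with siCtrl and at 5.49, 1.81 and 2.44 CPM in the libraries labelled siTREX1. A single library, siTREX1 replicate 1, stood well above the rest, and the groups overlapped. The log2 fold change of IL11 was 0.95 (standard error 0.49, 95% interval -0.25 to 2.15) and was not called, and without that library it was 0.34. IL6, the cytokine that names the family, was listed at 0 in every library. LIF was 3.38, 2.84 and 4.71 times IL11 in the siCtrl libraries and 4.28, 12.2 and 9.31 times IL11 in the libraries labelled siTREX1.

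Of the chains that a LIF signal needs, the listed transcript of gp130 was abundant and that of LIFR was close to absent. IL6ST was at 29.4, 26.6 and 30.4 CPM with siCtrl and at 29.6, 30.0 and 31.9 CPM in the libraries labelled siTREX1, with overlapping ranges. Its log2 fold change was 0.08 (standard error 0.07), with a 95% interval from -0.08 to 0.24. LIFR, the chain that binds LIF, had 0.747, 2.31 and 1.15 estimated counts in the siCtrl libraries and 1.04, 0.937 and 1.68 in the libraries labelled siTREX1. That is 0.0770 ± 0.0573 CPM (SD, n = 3) and 0.0672 ± 0.0298 CPM (SD, n = 3), and within single libraries IL6ST exceeded LIFR 187 to 877 times. The transcript listed for LIFR (ENST00000453190) is 1 of 9 in the annotation and carries the whole coding sequence of 3291 bases. Levels of the other LIFR transcripts were not given, so LIFR mRNA as a whole was not measured. OSMR, a chain through which oncostatin M signals, was listed at 0 in 3 libraries and at no more than 0.0262 CPM in the others. IL6R, the chain that binds IL-6, was low, at 0.658, 1.03 and 0.856 CPM with siCtrl and 0.649, 0.377 and 0.394 CPM in the libraries labelled siTREX1. The 2 groups nearly touched at replicate 1 of each. The log2 fold change of IL6R was -0.80 (standard error 0.44, 95% interval -1.88 to 0.27), was not called, and was -1.10 without siTREX1 replicate 1. With LIF higher and IL6ST near its control level, the ratio of LIF to IL6ST went from 0.202 ± 0.0322 (SD, n = 3) to 0.746 ± 0.0422 (SD, n = 3).

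**Figure D1:**
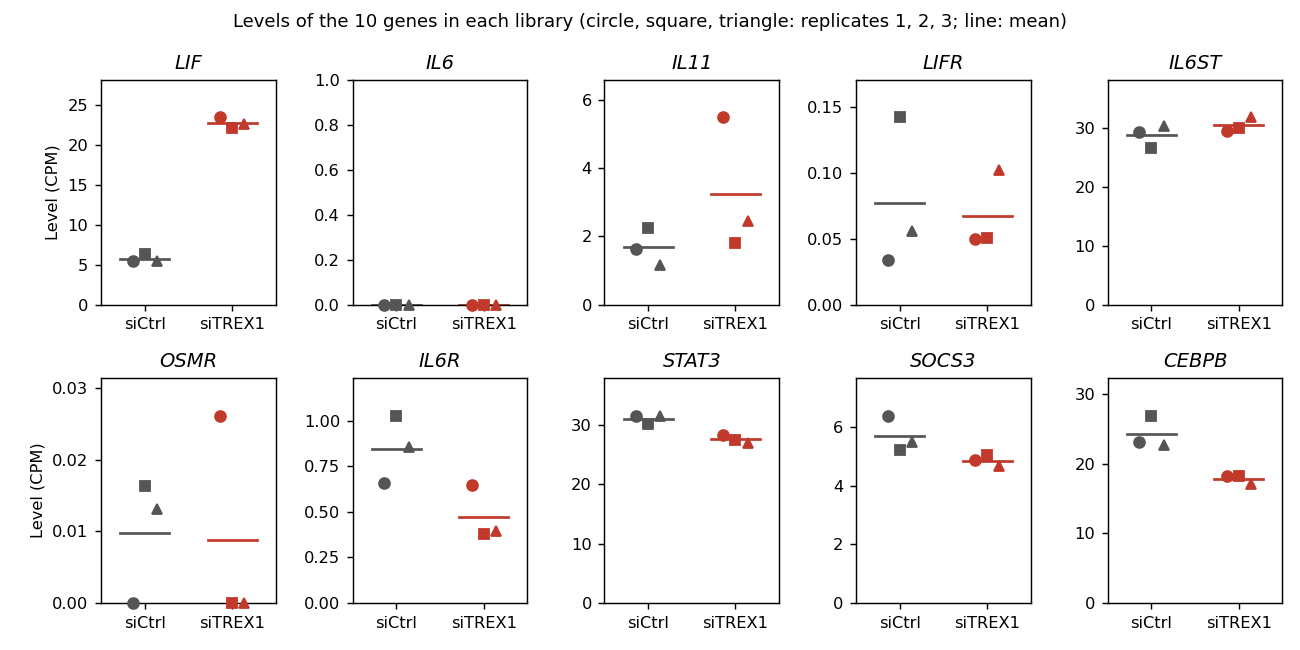
Level in CPM (vertical axes, each from 0) of each of the 10 genes in the 3 siCtrl (grey) and 3 siTREX1 (red) libraries, where circles, squares and triangles are replicates 1, 2 and 3 and lines are group means. LIF sits at 22.1 to 23.5 CPM in all 3 siTREX1 libraries against 5.46 to 6.36 CPM, IL11 is high in replicate 1 alone, and LIFR and OSMR stay under 0.15 CPM.

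Downstream of the receptors, STAT3 and its 2 target genes did not rise with LIF. STAT3 was at 31.5, 30.1 and 31.6 CPM with siCtrl and at 28.3, 27.5 and 26.9 CPM in the libraries labelled siTREX1. The groups did not overlap, and STAT3 fell by 11.4% (log2 fold change -0.17, standard error 0.05, 95% interval -0.29 to -0.06). It was called lower in edgeR as reported, but not in DESeq2, not when no filter was set, and not without any 1 library, when its log2 fold change ran from -0.19 (without siCtrl replicate 2) to -0.15 (without siTREX1 replicate 3). SOCS3, the feedback inhibitor that STAT3 induces, was at 6.39, 5.22 and 5.49 CPM with siCtrl and at 4.87, 5.04 and 4.66 CPM in the libraries labelled siTREX1. All 3 of the latter lay below all 3 controls, though the gap was narrow, and the log2 fold change of -0.23 (standard error 0.14, 95% interval -0.56 to 0.10) was not called. Per listed STAT3 transcript, SOCS3 was nearly level, at a ratio of 0.183 ± 0.0171 (SD, n = 3) and 0.177 ± 0.00615 (SD, n = 3). CEBPB, the gene of C/EBP beta, was at 23.1, 26.9 and 22.7 CPM with siCtrl and at 18.2, 18.2 and 17.1 CPM in the libraries labelled siTREX1. These ranges were clearly apart, and CEBPB fell by 26.3% (log2 fold change -0.44, standard error 0.08, 95% interval -0.64 to -0.24). With a trend in transcript GC content removed from each library, the log2 fold change of CEBPB was -0.22 and it was still called lower. That of SOCS3 was -0.12 in the same fit. The listed CEBPB transcript is a single exon with 66.2% G and C.

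Of the 7 tested genes, 1 was called higher and 2 were called lower at an adjusted p under 0.05, and 4 were not called. Over all 13221 tested genes, 33.3% were called, 17.8% higher and 15.5% lower. Ranges of the groups did not overlap for 5 of the 7, against 50.5% of all tested genes. Since this contrast chose the genes, nothing is read from these shares.

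**Figure D2:**
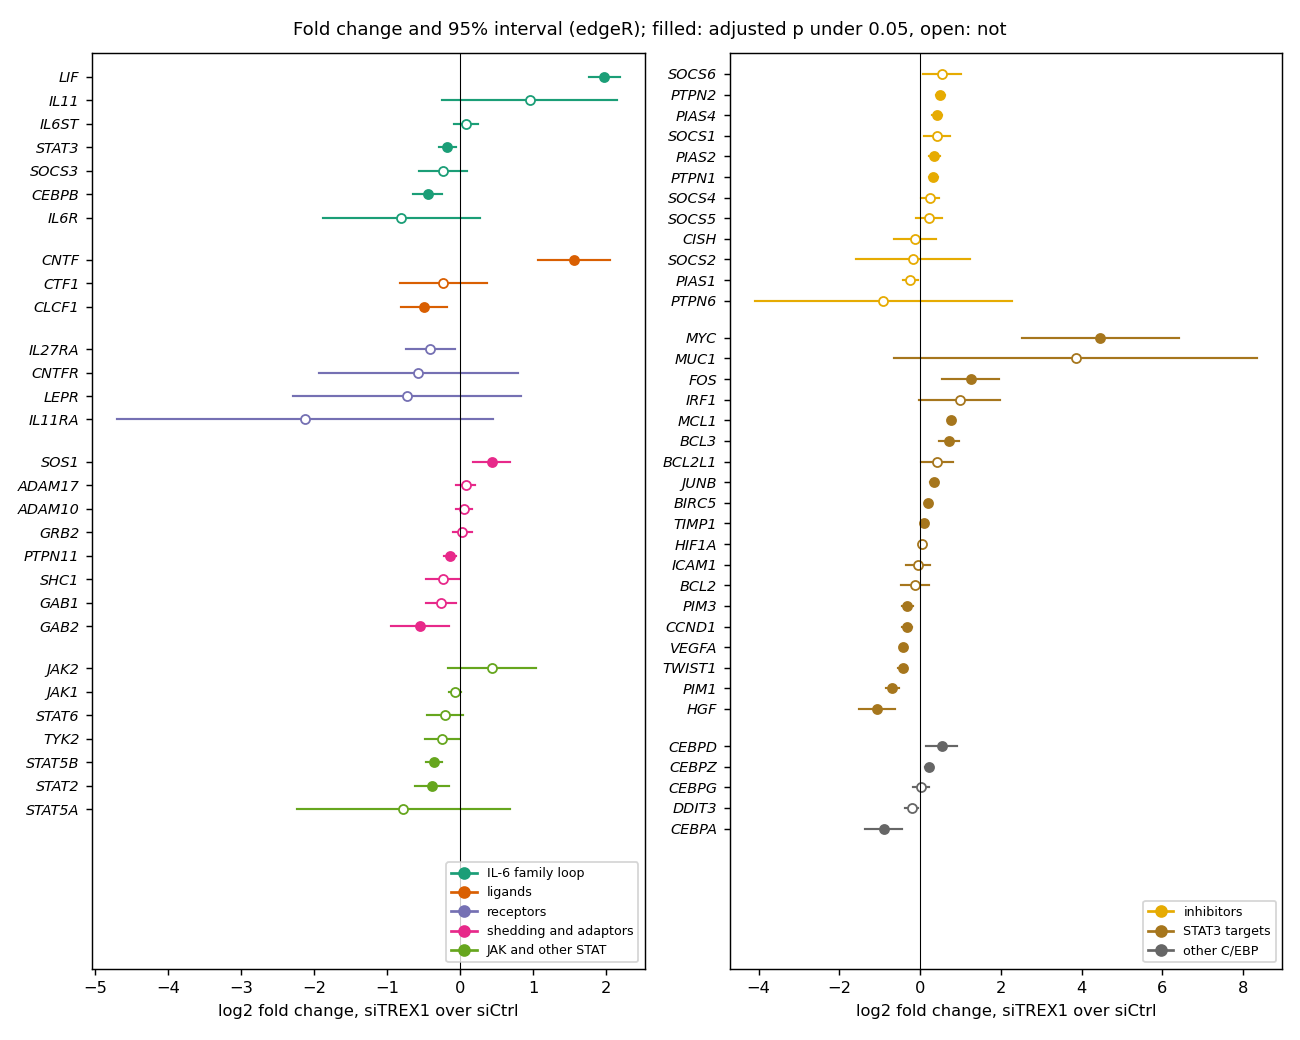
Log2 fold change of the libraries labelled siTREX1 over siCtrl (horizontal axes) with its 95% interval for the 7 tested genes of the loop (upper left) and the reported genes of the other lists, with filled circles for an adjusted p under 0.05 in edgeR and open circles for the rest. LIF stands at 1.97 and STAT3, SOCS3 and CEBPB between -0.17 and -0.44, while no receptor is filled.

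The order of the 10 genes by the level of their listed transcripts shows the change of LIF from within each group. Under siCtrl the order was STAT3 (31.1 CPM), IL6ST (28.8), CEBPB (24.3), LIF (5.78), SOCS3 (5.70), IL11 (1.68), IL6R (0.849), LIFR (0.0770), OSMR (0.00981) and IL6 (0). Of the 9 neighbouring pairs in that order, 5 had ranges that did not overlap. STAT3 and IL6ST, IL6ST and CEBPB, LIF and SOCS3, and OSMR and IL6 could not be separated. In the libraries labelled siTREX1 the order was IL6ST (30.5 CPM), STAT3 (27.5), LIF (22.7), CEBPB (17.8), SOCS3 (4.86), IL11 (3.25), IL6R (0.473), LIFR (0.0672), OSMR (0.00874) and IL6 (0), and 7 of 9 pairs were separated, all but SOCS3 with IL11 and OSMR with IL6. By listed transcript, LIF thus went from beside SOCS3 to above CEBPB.

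The genes whose course was most like that of LIF were found by the root mean square difference of log2 levels from their siCtrl means over the 6 libraries, among 11430 other tested genes whose log2 CPM averaged 1 or more. The nearest were TNFAIP3, the NF-kB feedback inhibitor A20 (difference 0.0872), ATF5, a stress-related bZIP transcription factor (0.0873), CCN1, a matrix protein (0.0958), FAM13B (0.0972) and PTGS2, the inducible cyclooxygenase (0.109), all in log2 units. ATF5 was at 7.02, 7.92 and 8.08 CPM with siCtrl and at 30.7, 30.9 and 31.4 CPM in the libraries labelled siTREX1. PTGS2 was at 2.56, 2.78 and 2.58 CPM and at 9.96, 10.8 and 12.1 CPM. These genes were picked for their likeness to LIF, so their own rises are a description.

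**Figure D3:**
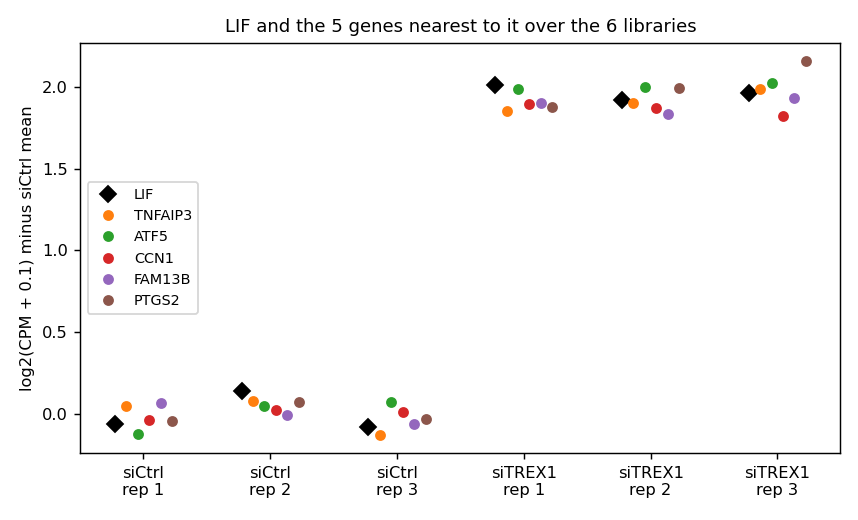
Log2 of CPM plus 0.1, less the siCtrl mean of the gene (vertical axis), in each of the 6 libraries (horizontal axis) for LIF (black diamonds) and the 5 genes nearest to it (coloured circles). The points of TNFAIP3, ATF5, CCN1, FAM13B and PTGS2 lie close to those of LIF in every library, with root mean square differences of 0.0872 to 0.109.

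The wider pathway was read through 86 listed genes outside the 10, of which 60 were tested. In edgeR 16 were higher, 12 lower and 32 not past the test, so that 46.7% were called beside 33.3% of all tested genes, with a median log2 fold change of -0.04 beside -0.02 over all genes. These lists were written with earlier results of these data known, so the shares called are given as a description. The other ligands moved in both directions. Of 4 tested, 2 were higher, 1 lower and 1 not past the test (75% called beside 33.3% of all tested genes, median log2 fold change 0.21). CNTF, ciliary neurotrophic factor, which also uses LIFR and gp130, was at 1.31, 1.57 and 1.30 CPM with siCtrl and at 3.97, 4.01 and 4.38 CPM in the libraries labelled siTREX1 (log2 fold change 1.56, standard error 0.20, adjusted p = 0.00247 from edgeR). All 3 of the latter were higher, but exons of CNTF overlap those of the read-through gene ZFP91-CNTF, and reads may be shared. CLCF1, a cytokine that signals through the receptor for CNTF, was at 6.73, 6.47 and 5.71 against 4.50, 4.67 and 4.28 CPM (log2 fold change -0.49, adjusted p = 0.0301 from edgeR). The call of CLCF1 ended without any 1 library other than siCtrl replicate 3 (adjusted p = 0.0612 to 0.0974 from edgeR), and exons of another protein-coding gene overlap CLCF1 on its strand. OSM, IL27, EBI3 and IL31 were too low to test.

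None of the 4 other tested receptors passed the test (0% called beside 33.3% of all tested genes), and the median of their log2 fold changes was -0.65. With 4 genes, nothing is read from this share. In edgeR 0 were higher and 0 lower (before adjustment 0 and 1, and 0 and 0 in DESeq2 and in limma-voom). IL27RA, the WSX-1 chain of the IL-27 receptor, was the most abundant, at 8.95, 8.70 and 10.6 CPM with siCtrl and 7.08, 6.22 and 7.99 CPM in the libraries labelled siTREX1 (log2 fold change -0.41, adjusted p = 0.0653 from edgeR). IL11RA, the chain that binds IL-11, was at 3.18, 4.14 and 2.72 CPM and at 0.623, 0 and 1.66 CPM. All 3 siTREX1 values were below all 3 controls, yet they were so uneven that the log2 fold change of IL11RA had a 95% interval from -4.69 to 0.45 (adjusted p = 0.178 from edgeR), and IL11RA shares exonic bases with GALT. CNTFR, the chain that binds CNTF, averaged 1.51 and 1.03 CPM, and LEPR, the leptin receptor, 0.536 and 0.316 CPM, both with overlapping ranges, and LEPR shares exonic bases with LEPROT. IL31RA and CSF3R were too low to test.

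The JAK kinases that the receptors carry were present, apart from JAK3 at 0.185 CPM with siCtrl, and none of the 3 tested passed the test. JAK1 was at 63.1, 62.5 and 63.6 CPM with siCtrl and at 59.0, 59.4 and 61.7 CPM in the libraries labelled siTREX1 (log2 fold change -0.07, 95% interval -0.16 to 0.01, adjusted p = 0.171 from edgeR). TYK2 averaged 40.0 and 33.8 CPM (log2 fold change -0.24, adjusted p = 0.0984 from edgeR) and JAK2 4.81 and 6.51 CPM (log2 fold change 0.44, adjusted p = 0.227 from edgeR). JAK1 was called lower with the GC trend removed (adjusted p = 0.0330 from edgeR) and TYK2 in DESeq2 (0.0472). Of the 8 tested JAK and other STAT genes, 0 were higher and 2 lower (25% called beside 33.3% of all tested genes, median log2 fold change -0.22). STAT5B, a STAT of cytokine and growth hormone receptors, was at 37.9, 38.7 and 38.7 CPM with siCtrl and at 30.5, 30.7 and 28.7 CPM in the libraries labelled siTREX1, lower in 3 of 3 (log2 fold change -0.36, standard error 0.05, adjusted p = 0.00258 from edgeR). STAT2, the STAT of type I interferon signalling, had a log2 fold change of -0.38 (adjusted p = 0.0273 from edgeR), a call that ended without any 1 library other than siTREX1 replicate 1 (0.0550 to 0.0847).

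Inhibitors of the pathway other than SOCS3 were called at the share of all tested genes, 33.3% in both. Of 12 tested, 4 were higher, 0 lower and 8 not past the test in edgeR (before adjustment 7 and 1, and 5 and 1 in DESeq2 and in limma-voom), with a median log2 fold change of 0.28. PTPN2, a phosphatase that acts on JAK1, JAK3 and STAT proteins, was at 26.6, 25.0 and 25.5 CPM with siCtrl and at 36.6, 37.0 and 35.6 CPM in the libraries labelled siTREX1 (log2 fold change 0.50, standard error 0.05, adjusted p = 0.000858 from edgeR). PTPN1, its close relative, was at 46.1, 46.7 and 47.3 against 58.4, 55.6 and 61.6 CPM (log2 fold change 0.32, adjusted p = 0.00385 from edgeR). The SUMO ligases PIAS4 and PIAS2, of a family named for inhibiting STATs, had log2 fold changes of 0.42 (adjusted p = 0.00210 from edgeR) and 0.35 (adjusted p = 0.00574 from edgeR). All 4 were higher in 3 of 3 libraries, and each stayed past the threshold in every alternative. SOCS1, the nearest functional relative of SOCS3, was at 8.97, 8.86 and 7.89 CPM with siCtrl and at 9.57, 12.8 and 11.9 CPM in the libraries labelled siTREX1. Its log2 fold change, 0.41, did not pass the test (adjusted p = 0.0586 from edgeR).

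Genes that STAT3 is known to activate in other cells were called in both directions. Of 35 listed, 16 were too low to test, among them the acute-phase genes FGA, FGB, FGG, SAA1, SAA2 and LBP, which were listed at 0 in all 6 libraries. Of the 19 tested, 7 were higher, 6 lower and 6 not past the test (68.4% called beside 33.3% of all tested genes, median log2 fold change 0.09). MCL1, an antiapoptotic relative of BCL2, was at 118 ± 1.23 CPM (SD) with siCtrl and at 200.2 ± 3.43 CPM (SD) in the libraries labelled siTREX1 (log2 fold change 0.76, standard error 0.03, adjusted p = 4.91e-05 from edgeR), and its exons overlap ADAMTSL4-AS1 on the same strand. PIM1, a survival kinase, was at 29.8, 31.3 and 29.5 CPM and at 17.4, 19.3 and 19.7 CPM (log2 fold change -0.68, standard error 0.07, adjusted p = 0.000940 from edgeR). VEGFA, an angiogenic factor, had a log2 fold change of -0.41 (adjusted p = 0.000527 from edgeR), and TWIST1, a factor of the mesenchymal state, of -0.43 (adjusted p = 0.00149 from edgeR). Each of these 4 genes moved the same way in 3 of 3 libraries and was called in every alternative. They were taken by lowest p, so their directions do not stand for the list. Because the list was written with earlier results of these data known, nothing is read from its share called. MYC, given above among the markers, is on this list too and was called higher (log2 fold change 4.47).

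Among adaptors and sheddases, of 8 tested, 1 was higher, 2 lower and 5 not past the test (37.5% called, near the 33.3% of all tested genes, median log2 fold change -0.05). ADAM10 and ADAM17, proteases that can release the soluble IL-6 receptor, averaged 39.6 and 43.5 CPM with siCtrl and 41.2 and 45.8 CPM in the libraries labelled siTREX1. PTPN11, the phosphatase SHP2 that docks on gp130, was at 154 ± 4.11 CPM (SD) and 141 ± 3.58 CPM (SD) (log2 fold change -0.13, adjusted p = 0.0252 from edgeR). SOS1, an exchange factor of RAS, had a log2 fold change of 0.43 (adjusted p = 0.0235 from edgeR), and GAB2, a docking protein, of -0.55 (adjusted p = 0.0445 from edgeR). Each of these calls was lost when certain single libraries were left out. For PTPN11 and SOS1 these were replicates 1 and 3 of siCtrl and replicates 1 and 2 of siTREX1, with an adjusted p in edgeR of 0.0740 to 0.0854 and of 0.0590 to 0.0759, and GAB2 lost its call without any 1 library other than siTREX1 replicate 1 (0.0527 to 0.131). With all 6 libraries, the call of SOS1 also ended with the GC trend removed (adjusted p = 0.0595 from edgeR), that of PTPN11 with library sizes alone (0.0542) and that of GAB2 without a filter (0.0577). Among other C/EBP genes, of 5 tested 2 were higher and 1 lower (60% called beside 33.3% of all tested genes, median log2 fold change 0.03). CEBPA, the factor of C/EBP alpha, was at 9.31, 8.03 and 8.85 CPM with siCtrl and at 5.08, 3.48 and 5.42 CPM in the libraries labelled siTREX1, the same direction as CEBPB (log2 fold change -0.90, standard error 0.19, adjusted p = 0.0133 from edgeR, and 0.0505 with the GC trend removed). CEBPD, the relative that STAT3 induces in the acute phase, was at 4.98, 5.88 and 6.48 CPM and at 9.47, 7.31 and 8.32 CPM (log2 fold change 0.53, adjusted p = 0.0437 from edgeR), and its call ended without any 1 library other than siTREX1 replicate 2 (0.0579 to 0.125) and, with all 6, when no filter was set (0.0570). CEBPZ, a ribosome biogenesis factor that is not a true C/EBP protein, had a log2 fold change of 0.22 (adjusted p = 0.0107 from edgeR).

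**Figure D4:**
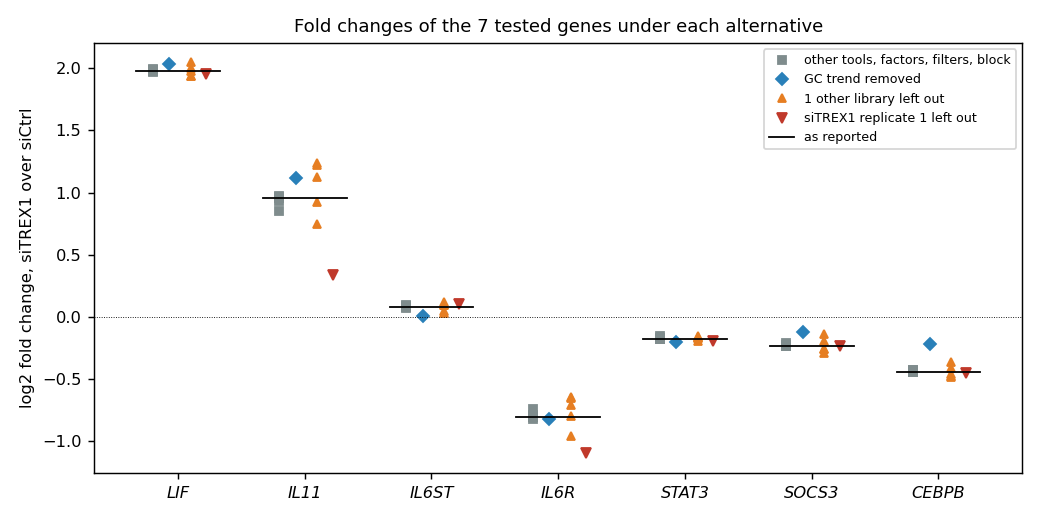
Log2 fold change of the libraries labelled siTREX1 over siCtrl (vertical axis) for the 7 tested genes of the loop, as reported (black lines), with other tools, factors, filters or the replicate block (grey squares), with the GC trend removed (blue diamonds) and with 1 library left out (triangles, red for siTREX1 replicate 1). LIF stays between 1.94 and 2.05, IL11 drops to 0.34 without siTREX1 replicate 1, and CEBPB moves to -0.22 with the GC trend removed.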

How the data were processed

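Total RNA of H69AR cells was sequenced as read pairs from strand-specific libraries, 3 with siCtrl and 3 labelled siTREX1. The authors ran FastQC and kallisto (versions not given in the sources used here), and deposited estimated counts made by tximport with the scaledTPM option, 1 transcript per gene symbol. The submitters' processing notes name hg19. Such counts follow each library's depth and do not depend on transcript length. A line without a symbol (0.0925% to 0.109% of counts) was left out. Transcript properties came from GENCODE 29 on GRCh38, which held 99.3% of listed transcripts, and no coordinates were converted.

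The estimated counts, rounded to whole numbers, entered edgeR 4.0.16 (R 4.3.3, TMM factors, filterByExpr with minimum count 10, robust quasi-likelihood fit on group), with Benjamini-Hochberg adjustment over 13221 genes. Standard errors and 95% intervals came from the F statistic. Other settings were DESeq2 1.42.0, limma-voom (limma 3.58.1), RLE factors or library sizes without factors, no filter or a filter of 10 counts in each of the 6 libraries, the replicate number as a block, removal of a GC trend (lowess, span 0.3) and leaving out each library. The members, lists and tests were chosen with earlier results of these data known. Named were all members, TREX1, the 5 genes nearest to LIF, measured receptors and JAKs, and from each list at most 4 called genes, taken by lowest p. Other list genes (SOCS1, MYC, ADAM10, ADAM17, OSM, IL27, EBI3, IL31 and the acute-phase genes) were named after their values were seen. SOCS7 was not analysed here. Some listed genes enter the counts but are not reported here by name. Motifs were searched in Python 3.11.15. No 2 libraries were identical.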

Additional observations from a re-analysis of the deposited data

How the results depend on the processing

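LIF was called higher and CEBPB lower under every alternative run, with log2 fold changes of 1.94 to 2.05 and -0.48 to -0.22. STAT3 kept its direction but was not called without a filter (log2 fold change -0.17), in DESeq2 (-0.17), with the replicate number as a block (-0.17) or without any 1 library (-0.19 to -0.15), so the count of members called lower was 1 in place of 2 in each of these fits. With a library left out, the members called lower ranged from 1 to 1 and those called higher from 1 to 1. TREX1 was called lower only without siTREX1 replicate 1 (log2 fold change -0.62), the library singled out by its TREX1 level. Its log2 fold change ranged from -0.62 to -0.16 over the left-out libraries. IL6R could not be fitted with at least 10 counts in all 6 libraries. Pathway calls ran from 11 to 18 higher and from 8 to 16 lower over all alternatives. Whether the shared replicate numbers pair the libraries was not settled. Deviations of same-numbered libraries correlated at 0.018, 0.026 and 0.024 over genes, and those of differently numbered libraries at -0.044 to 0.019. Every library but siTREX1 replicate 1 correlated best with its own number, though all values were small. The block moved all calls from 2349 higher and 2049 lower to 1901 and 1518. Among the pathway genes named, the block ended the calls of CLCF1 (adjusted p = 0.0740 from edgeR), STAT2 (0.0535), PTPN11 (0.0581), GAB2 (0.101) and CEBPD (0.104). IL6, LIFR and OSMR were too low to test at this depth.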
